A study of Rattus norvegicus with 10 samples.

Results

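The semaphorins, plexins, neuropilins, ephrins and Eph receptors were examined in the hippocampus of transgenic Alzheimer-model rats that ate chow with or without the drug BT-11. The genes were taken by symbol, as every symbol that starts with Sema, Plxn, Efna, Efnb, Epha or Ephb followed by a number or letter, together with Nrp1 and Nrp2. The rule found 47 of the 13670 gene symbols in the deposited table. They comprised 20 semaphorins, 7 plexins, 2 neuropilins, 7 ephrins and 11 Eph receptors, of which 45 had enough reads to be tested. Family members without a symbol in that table are not covered here. The libraries came from left hippocampi of 10 female TgF-344AD rats at 11 months of age, 1 rat per library. In the treated group, 5 rats received BT-11, a small molecule that binds LANCL2, in their chow for 6 months, starting when they were 5 months old. The 5 rats of the untreated group had rodent chow without the drug. Every animal of both groups carried the transgenes, which in this Fischer rat line include a mutant human form of APP driven by the mouse prion promoter. Wild-type rats and males are not analysed here, so the values say nothing of how the transgenes or sex act on these genes.

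Library totals of the deposited estimated counts lay between 13721673 and 19700443, and levels are given as CPM, the counts of a gene scaled to a common library total, with TMM scaling. Markers of CA1 pyramidal, CA3 and CA2 pyramidal and dentate granule cells were present in all 10 libraries, with mean log2(CPM + 1) of 6.41, 5.88 and 5.78 in the BT-11 group and 6.63, 5.73 and 5.75 in the untreated group. BT-11 library 3 and untreated library 4 stood apart. Of 12 choroid plexus markers, 8 had enough reads to be tested, and the mean log2(CPM + 1) over these 8 was 5.25 and 5.47. The other BT-11 libraries lay between 0.83 and 1.76 and the other untreated libraries between 1.72 and 2.49. The 16 markers of mature oligodendrocytes and myelin averaged 7.09 ± 0.24 in BT-11 libraries and 7.53 ± 0.24 in untreated libraries on this scale (SD, n = 5 each; two-sided exact permutation p = 0.0159, adjusted over 13 marker lists 0.207). In whole tissue, fewer cells of a type and less RNA per cell cannot be told apart.

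Semaphorins are secreted or membrane-bound ligands that steer axons, mostly by repulsion. Plexins are their signalling receptors, and most secreted class 3 semaphorins need a neuropilin as a coreceptor. Ephrins are ligands tethered to the cell surface, through a lipid anchor in the A class and a transmembrane segment in the B class, and they bind Eph receptor tyrosine kinases on neighbouring cells, with signals passing in both directions. In the adult hippocampus these families are known for shaping dendritic spines, mossy fibre connections and the contacts between astrocytes and synapses.

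The comparison of BT-11 with untreated rats asked which of these genes differed in level with the drug. With BT-11, 30 of the 45 tested genes averaged lower and 15 averaged higher, but no gene of these families passed edgeR's quasi-likelihood test after Benjamini-Hochberg adjustment over the 12000 genes tested. The lowest fold changes were those of ligands at low levels. The ephrins Efna5 and Efna1 were at 0.538 and 0.633 times their untreated level, and the semaphorins Sema3a and Sema3b at 0.594 and 0.659 times. Efna5 and Sema3a averaged 1.42 and 1.49 CPM untreated, and Efna1 and Sema3b 9.5 and 12.8 CPM. Ligands above 100 CPM untreated had log2 fold changes between -0.14 for Sema6d and 0.14 for Sema5a. The highest fold changes were those of the coreceptor Nrp1 at 1.3 times and the receptor Epha4 at 1.26 times. The median log2 fold change was -0.05 over the 45 genes, with quartiles of -0.18 and 0.03, and 0.0 over all genes tested, with quartiles of -0.08 and 0.08.

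The background of the whole table was read beside these counts. Of all genes tested, 0% passed edgeR's adjusted threshold of 0.05, and 0 of the 45 family genes did. At an unadjusted p under 0.05, 5.96% of all genes were reached, against 7 of the 45 family genes, or 15.6%. In the lower direction the background was 3.42% against 6 family genes, and in the higher direction 2.53% against 1. The values of the BT-11 and untreated libraries did not overlap for 0.842% of all genes, 0.3% with BT-11 higher and 0.542% with BT-11 lower, and for 0 of the 45. DESeq2 called 0.0745% of the genes it tested and limma voom 0%, and neither called a family gene. All genes split evenly, 50% above 0 and 50% below 0, where the family genes split 33.3% and 66.7%. The split went with level. Of the 10 tested family genes under 10 CPM in untreated libraries 9 averaged lower with BT-11, where 56.7% of all 3428 such genes did. Above 100 CPM 5 of 12 averaged lower, where 37.2% of 2039 genes did.

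The count of 7 genes at an unadjusted p under 0.05 moved up or down with the library left out. It was 4 without BT-11 library 2, where 3.1% of all genes were reached in the same fit, 12 without BT-11 library 4 (6.98% of all genes), 3 without untreated library 2 (4.14%), 12 without untreated library 4 (9.37%) and 11 without untreated library 5 (8.25%). Without BT-11 libraries 1, 3 or 5 it was 6, 9 and 7, against 4.27%, 8.4% and 5.12% of all genes, and without untreated libraries 1 or 3 it was 5 each, against 3.96% and 5.59%. The background thus moved with the library left out as well. Without both choroid-plexus-rich libraries, an alternative chosen after seeing the data, it was 14 genes, 5 higher and 9 lower, where the background was also larger at 12%, split as 5.82% higher and 6.15% lower. In these 8 libraries the groups did not overlap for 2 family genes and for 5.13% of all genes. With the myelin level of each library as a covariate it was 3 genes, 1 higher and 2 lower, against a background of 4.66%, split as 3.23% higher and 1.43% lower. These were Plxnb3 (unadjusted p 0.00744), Efna2 (0.0234) and Ephb2 (0.0349), each with an adjusted p of 0.923 by edgeR, and 0 of the 3 were among the 7. Of the 7, Efna5 had a log2 fold change of -1.03 with this covariate and Sema5b -0.2, and the other 5 lay between -0.08 and -0.03. The myelin level was measured after treatment and was itself lower in BT-11 libraries. A fit with this covariate therefore cannot tell the drug from the myelin level, here or for the single genes below. None of these fits took a family gene past the adjusted threshold.

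**Figure D1:**
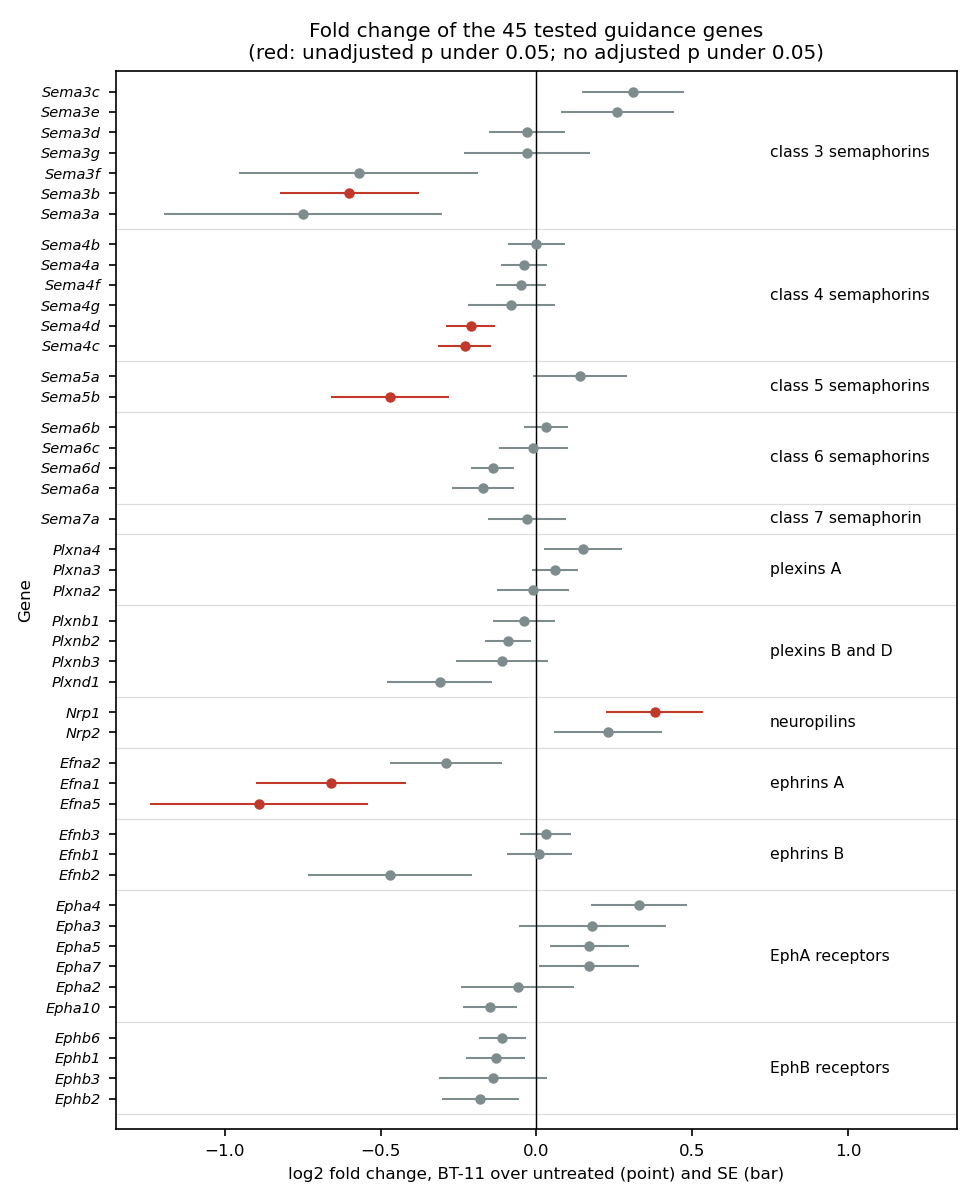
Log2 fold change of BT-11 over untreated for each of the 45 tested genes, grouped by family down the page, with points for the estimate, bars for its standard error and red for an unadjusted p under 0.05. The 3 tested ephrins A and the 4 tested EphB receptors lie left of 0. Both neuropilins and 4 of the 6 tested EphA receptors lie right of 0, and no gene has an adjusted p under 0.05.

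The promoters of Efna1, Nrp1 and Sema3c are shown because Efna1 and Nrp1 had the smallest unadjusted p of the genes that averaged lower and higher with BT-11, and Sema3c and Efna1 followed Epha4 most closely among libraries, again in opposite directions. Each sequence runs 5′ to 3′ over 300 bases, 250 before and 50 after the start of the gene, from RefSeq on build GRCr8. Capitals mark GC boxes, the letters GGGCGG or CCGCCC, overlapping matches included.
Efna1, chr2:176986772-176987071, minus strand: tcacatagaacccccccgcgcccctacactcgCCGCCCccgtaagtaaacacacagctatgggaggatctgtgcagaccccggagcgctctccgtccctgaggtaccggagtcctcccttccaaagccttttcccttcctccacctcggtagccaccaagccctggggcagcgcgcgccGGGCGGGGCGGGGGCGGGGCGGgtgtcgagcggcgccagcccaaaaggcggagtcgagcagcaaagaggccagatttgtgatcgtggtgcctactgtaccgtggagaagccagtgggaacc
Nrp1, chr19:73256307-73256606, plus strand: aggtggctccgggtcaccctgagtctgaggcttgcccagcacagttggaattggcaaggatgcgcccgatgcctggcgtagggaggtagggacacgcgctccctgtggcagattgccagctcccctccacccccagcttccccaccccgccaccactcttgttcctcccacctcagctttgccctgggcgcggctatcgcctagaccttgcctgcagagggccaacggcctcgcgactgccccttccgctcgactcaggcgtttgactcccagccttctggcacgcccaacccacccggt
Sema3c, chr4:18699578-18699877, minus strand: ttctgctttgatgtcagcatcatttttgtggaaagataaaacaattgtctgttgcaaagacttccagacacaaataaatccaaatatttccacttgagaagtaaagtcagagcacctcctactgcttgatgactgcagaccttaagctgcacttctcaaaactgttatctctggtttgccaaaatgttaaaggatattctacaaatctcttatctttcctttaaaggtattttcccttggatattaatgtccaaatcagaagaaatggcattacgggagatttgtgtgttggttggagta
The Efna1 window held 5 GC boxes and 25 CpG dinucleotides at a GC content of 66.0%. The Nrp1 window held 0 GC boxes and 18 CpG dinucleotides at 66.3% GC, and that of Sema3c held 0 GC boxes and 1 CpG at 36.3% GC. That GC content was the lowest among the family windows, shared with Sema6b. A window was found for 38 of the 47 genes, with a median GC content of 60.0% and 18 CpG dinucleotides, against 61.0% and 21 over 9501 tested genes. GC boxes were found in 47.4% of the family windows and 62.5% of those of the 9501 genes, and the letters TATAAA in 0 and 6.58%, both strands searched.

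Ephrins A are lipid-anchored ligands of EphA receptors. All 3 that could be tested averaged lower with BT-11. Efna1 (rn6 chromosome 2, 188588812 to 188596157, minus strand) had 3.98, 3.98, 8.08, 7.83 and 6.1 CPM in BT-11 libraries 1 to 5, against 11.5, 9.88, 12.5, 6.63 and 7.02 CPM in untreated libraries 1 to 5. BT-11 libraries 1 and 2 were the lowest of the 10 and untreated libraries 1 and 3 the highest, while BT-11 libraries 3 and 4 lay above untreated libraries 4 and 5. Its log2 fold change was -0.66 ± 0.241 (SE), with an unadjusted p of 0.0171 and an adjusted p of 0.809 by edgeR, and all 5 BT-11 libraries were below the untreated mean. With the myelin level as a covariate it was -0.08 ± 0.241. Efna5 (chromosome 9, 110057109 to 110329688, minus strand), which repels axons in topographic maps, had 0.265, 0.847, 1.05, 0.994 and 0.664 CPM with BT-11, against 1.56, 2.05, 0.649, 1.63 and 1.23 CPM untreated. Untreated library 3 lay among the BT-11 values and the other 4 untreated libraries lay above them all. The log2 fold change of Efna5 was -0.89 ± 0.349, adjusted p 0.809 by edgeR, and it rested on 179 counts in all 10 libraries over a row of 768 bases. Efna2 averaged 2.55 ± 0.407 CPM with BT-11 and 3.12 ± 0.621 CPM untreated (SD, n = 5 each), and Efna4 was too low to test at 0.548 ± 0.222 and 0.569 ± 0.255 CPM.

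Ephrins B carry a cytoplasmic tail and signal back into the cell that bears them. Efnb2 (chromosome 16), known from arterial vessels and from synapses, had 3.58, 5.08, 7.62, 7.27 and 5.13 CPM in BT-11 libraries, against 8.05, 11.6, 3.82, 9.1 and 7.22 CPM in untreated libraries. Untreated library 3 was the second lowest of all 10, so the groups overlapped, and the log2 fold change was -0.47 ± 0.264 with an adjusted p of 0.811 by edgeR. Efnb3, a neuronal ephrin of synapses and the midline, had 174.5, 176.5, 180.4, 189.5 and 205.1 CPM with BT-11, against 185.8, 196.4, 148.8, 195.6 and 181.4 CPM untreated, a log2 fold change of 0.03 ± 0.081. The groups covered much the same range apart from the low untreated library 3, and the sign of this value turned in 3 alternatives. Efnb1 averaged 14.9 ± 2.18 CPM with BT-11 and 14.8 ± 0.988 CPM untreated.

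**Figure D2:**
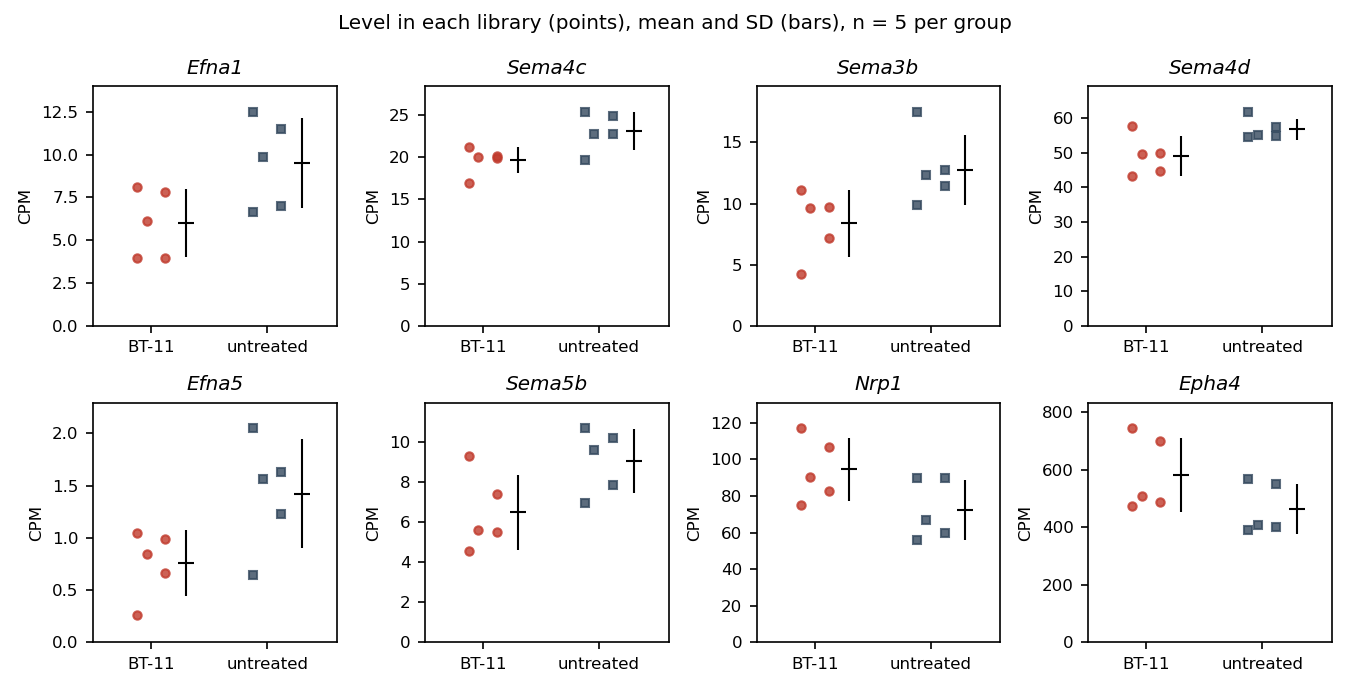
Level in CPM of 8 genes with small unadjusted p-values, with 1 point per library, BT-11 on the left and untreated on the right of each panel, and bars for mean and SD (n = 5 each). In every panel at least 1 library of a group lies within the range of the other group.

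Of the Eph receptors that the rule found, Epha4 had the highest level per kilobase of transcript. It binds ephrins of both classes and is known in the hippocampus from dendritic spines, where ephrin on astrocytes acts through it. Epha4 (chromosome 9, 83111223 to 83253459, minus strand) had 744.6, 699.8, 474.2, 489.2 and 507.9 CPM with BT-11, against 408.7, 400.5, 390.9, 550.7 and 569 CPM untreated. BT-11 libraries 1 and 2 stood above the rest, and untreated libraries 4 and 5 lay above BT-11 libraries 3 to 5. Its log2 fold change was 0.33 ± 0.154 (unadjusted p 0.0517, adjusted p 0.809, edgeR), with all 5 BT-11 libraries above the untreated mean, and it was -0.08 with the myelin level as a covariate. Epha7, a receptor with known roles in cortical and hippocampal dendrites, had 184.9, 143.3, 99.6, 94.4 and 117.4 CPM with BT-11, against 104.1, 120.7, 100.5, 113.6 and 129.5 CPM untreated. BT-11 library 1 was the highest and BT-11 library 4 the lowest, the log2 fold change was 0.17 ± 0.16, and it came to -0.003 without BT-11 library 1 and -0.24 with the myelin covariate. Epha5 averaged 178.3 ± 37.2 and 158 ± 17.4 CPM and Epha3 8.51 ± 2.28 and 7.5 ± 2.51 CPM in BT-11 and untreated libraries. Epha10, whose kinase domain is inactive, averaged 16.6 ± 1.3 CPM with BT-11 and 18.5 ± 1.79 CPM untreated, Epha2 averaged 1.67 ± 0.254 and 1.74 ± 0.263 CPM, and Epha1, with 34 counts in all libraries, was not tested.

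EphB receptors are the main partners of ephrins B at excitatory synapses. All 4 that the rule found averaged lower with BT-11, with log2 fold changes between -0.18 and -0.11 and 0 of 4 at an unadjusted p under 0.05. Ephb1 averaged 70.9 ± 4.7 CPM with BT-11 and 77.9 ± 11.7 CPM untreated, and Ephb2, which gathers NMDA receptors at synapses, averaged 21.2 ± 4.42 and 23.9 ± 1.05 CPM. Ephb3 averaged 17.9 ± 4.67 and 19.8 ± 3.64 CPM and Ephb6, a receptor without kinase activity, 66.2 ± 6.44 and 71.5 ± 5.12 CPM in BT-11 and untreated libraries.

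Class 3 semaphorins are secreted. Of 7 genes, 2 averaged higher and 5 lower with BT-11, and their fold changes spanned almost the full range of the families, with log2 values between -0.75 and 0.31. Sema3b (chromosome 8, 116354071 to 116361344, minus strand), a ligand of neuropilin complexes, had 7.16, 4.24, 9.65, 9.75 and 11.1 CPM with BT-11, against 12.7, 12.3, 17.5, 11.4 and 9.88 CPM untreated. Only BT-11 library 5 and untreated library 5 crossed, with 11.1 CPM in the BT-11 library above 9.88 CPM in the untreated one. The log2 fold change was -0.60 ± 0.224 (unadjusted p 0.0193, adjusted p 0.809, edgeR), with 5 of 5 BT-11 libraries below the untreated mean, or -0.03 ± 0.221 with the myelin covariate. Sema3f, close by on the same strand (chromosome 8, 116439996 to 116469916), which acts through Nrp2 and prunes mossy fibres and spines, had 0.928, 1.24, 3.68, 3.54 and 1.57 CPM with BT-11, against 3.65, 4.49, 3.53, 3.25 and 1.49 CPM untreated. BT-11 libraries 1, 2 and 5 and untreated library 5 were low and the other 6 libraries were alike, and the log2 fold change was -0.57 ± 0.383 (adjusted p 0.819, edgeR), or -0.003 with the myelin covariate.

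On chromosome 4, Sema3c, Sema3e, Sema3a and Sema3d lie in this order on the minus strand between 14318276 and 19413520, and they did not share a direction. Sema3c had 71.6, 66, 41.8, 43.6 and 43.7 CPM with BT-11, against 38.8, 40, 35.9, 49.3 and 51.1 CPM untreated. BT-11 libraries 1 and 2 were again the highest, the other 3 BT-11 libraries lay within the untreated range, and the log2 fold change was 0.31 ± 0.163 (unadjusted p 0.081, adjusted p 0.809, edgeR), or -0.17 with the myelin covariate. Sema3e, the ligand that binds Plxnd1 without a neuropilin, averaged 37.9 ± 6.95 CPM with BT-11 and 31.7 ± 9.42 CPM untreated. Sema3a, the prototype repellent, averaged 0.885 ± 0.415 and 1.49 ± 0.976 CPM, a log2 fold change of -0.75 ± 0.446 over 192 counts in all libraries (adjusted p 0.812, edgeR). Sema3d averaged 5.84 ± 0.788 and 5.98 ± 0.427 CPM, and Sema3g, on chromosome 16, 16.3 ± 4.45 and 16.7 ± 3.9 CPM.

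Class 4 semaphorins span the membrane and bind mainly plexins of the B class. Of 6 genes 5 averaged lower with BT-11. Sema4c (chromosome 9, 43129415 to 43139871, minus strand), a ligand of Plxnb2, had 17, 19.9, 20, 21.2 and 20.2 CPM with BT-11, against 22.8, 25.4, 24.9, 19.7 and 22.7 CPM untreated. Untreated library 4 alone lay among the BT-11 values, and the log2 fold change was -0.23 ± 0.0857 (unadjusted p 0.019, adjusted p 0.809, edgeR), with 5 of 5 BT-11 libraries below the untreated mean, or -0.08 with the myelin covariate. Sema4d (chromosome 17, 13516276 to 13538514, plus strand), the ligand of Plxnb1, which oligodendrocytes are known to make, had 44.7, 43.3, 50, 49.7 and 57.7 CPM with BT-11, against 54.6, 57.4, 61.9, 55.1 and 55 CPM untreated. BT-11 library 5 lay among the untreated values and the other 4 below them, and the log2 fold change was -0.21 ± 0.0785 (unadjusted p 0.0195, adjusted p 0.809, edgeR), or -0.04 with the myelin covariate. Across the 10 libraries Sema4d had a Pearson correlation of 0.86 with the myelin marker level (permutation p 0.00151, adjusted over 585 relations 0.0327), whereas its Spearman rho was 0.65 (adjusted 0.163). Sema4a, Sema4b, Sema4f and Sema4g had log2 fold changes between -0.08 and 0.0.

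The class 5 genes, which carry thrombospondin repeats, differed in level and sign. Sema5b (chromosome 11, 68307037 to 68435110, minus strand) had 4.58, 5.61, 5.52, 9.32 and 7.43 CPM with BT-11, against 9.61, 10.7, 10.2, 7.87 and 6.96 CPM untreated. BT-11 libraries 4 and 5 and untreated libraries 4 and 5 overlapped, and the log2 fold change was -0.47 ± 0.19 (unadjusted p 0.0271, adjusted p 0.809, edgeR), or -0.2 with the myelin covariate. Sema5a, a ligand of Plxna2 that limits synapses on dentate granule cells in mice, had 524.5, 398.1, 301.3, 299.5 and 394.7 CPM with BT-11, against 294.8, 362.6, 298.1, 354.6 and 427.9 CPM untreated. BT-11 library 1 was far above the rest, the log2 fold change was 0.14 ± 0.152, and without that library it was 0.0007. Class 6 semaphorins are transmembrane ligands of plexins A that lay out the mossy fibre layers. Sema6d had 131.7, 123.6, 120.3, 126.9 and 128.7 CPM with BT-11, against 134.7, 161.4, 137.2, 124.5 and 138.2 CPM untreated, and untreated library 4 was the only one within the BT-11 range. Its log2 fold change was -0.14 ± 0.0689 (unadjusted p 0.0619, adjusted p 0.809, edgeR). Sema6a, whose reads, like those of Epha5, were divided by estimate between 2 transcript rows, had 50.4, 52.9, 68.1, 67.3 and 51.4 CPM with BT-11, against 67.5, 74.1, 61.3, 63.1 and 60.1 CPM untreated. BT-11 libraries 1, 2 and 5 lay below all untreated libraries and BT-11 libraries 3 and 4 among them, with a log2 fold change of -0.17 ± 0.0994. On the transcript row with most counts alone it was -0.005 ± 0.0964, and with the myelin covariate -0.05. Sema6b averaged 145.2 ± 12.5 and 142.2 ± 9.19 CPM and Sema6c 12.1 ± 1.55 and 12.2 ± 1.22 CPM in BT-11 and untreated libraries.

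Sema7a, a lipid-anchored semaphorin that signals through integrins and a plexin, had 269.3, 191.5, 153.8, 187.3 and 215.5 CPM with BT-11, against 205.1, 187, 239.4, 197.6 and 209.7 CPM untreated. BT-11 libraries held both the highest and the lowest value, and the log2 fold change was -0.03 ± 0.125, with the opposite sign without BT-11 library 3 (0.06) or without untreated library 3 (0.02).

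Neuropilins lend class 3 semaphorins a binding site and also bind forms of VEGF. Both averaged higher with BT-11. Nrp1 (chromosome 19, 61332351 to 61484111, plus strand) had 106.8, 117, 75.2, 82.9 and 90.4 CPM with BT-11, against 59.8, 66.6, 56, 90 and 90 CPM untreated. The 3 lowest libraries were untreated libraries 1, 2 and 3, and untreated libraries 4 and 5 lay among the BT-11 values. The log2 fold change was 0.38 ± 0.155 (unadjusted p 0.0288, adjusted p 0.809, edgeR) with 5 of 5 BT-11 libraries above the untreated mean, and it was -0.03 with the myelin level as a covariate. Nrp2 had 74.3, 84.5, 58, 59.3 and 69.1 CPM with BT-11, against 49.2, 55.4, 38.4, 78.5 and 72.1 CPM untreated, with the same 3 untreated libraries lowest. Its log2 fold change was 0.23 ± 0.173 (adjusted p 0.823, edgeR), or -0.24 with the myelin covariate.

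Plexins of the A class, which pair with neuropilins or bind class 5 and 6 semaphorins directly, had log2 fold changes between -0.01 and 0.15. Plxna2 had 228.8, 198.7, 155.3, 164.7 and 201.9 CPM with BT-11, against 169.1, 207.5, 159.4, 201.7 and 215.6 CPM untreated, a log2 fold change of -0.01 ± 0.115. Plxna4 had 620.2, 511, 368.3, 414.4 and 483.7 CPM with BT-11, against 378.4, 436.1, 392.7, 455.8 and 499.7 CPM untreated, a log2 fold change of 0.15 ± 0.126, or -0.14 with the myelin covariate. For both genes BT-11 library 1 was the highest and BT-11 library 3 the lowest of the 10. Plxna3 averaged 49.2 ± 2.59 CPM with BT-11 and 47.3 ± 4.65 CPM untreated.

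The B and D plexins all averaged lower with BT-11. Plxnd1 (chromosome 4, 147854309 to 147893993, minus strand), the receptor of Sema3e, had 29.8, 27.6, 33.4, 39.9 and 30.2 CPM with BT-11, against 47, 50.4, 45.6, 30.7 and 26.6 CPM untreated. Untreated libraries 1 to 3 lay above every BT-11 library, untreated library 4 among them and untreated library 5 below them, with a log2 fold change of -0.31 ± 0.169 (unadjusted p 0.0862, adjusted p 0.809, edgeR), or -0.09 with the myelin covariate. Plxnb3, known from oligodendrocytes, had 30.2, 33.8, 39.8, 42.9 and 39.3 CPM with BT-11, against 32.3, 39.9, 58, 35.2 and 36.6 CPM untreated. Untreated library 3 was far above the others, the log2 fold change of Plxnb3 was -0.11 ± 0.148, and it was 0.05 without that library and 0.36 ± 0.111 with the myelin covariate (adjusted p 0.923, edgeR). Plxnb1, receptor of Sema4d, averaged 220.1 ± 30.8 CPM with BT-11 and 226.2 ± 22 CPM untreated, and Plxnb2 averaged 97.5 ± 8.67 and 103.9 ± 7.68 CPM.

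Levels were compared between genes as CPM per kilobase of the transcript row, averaged over all 10 libraries. Epha4 at 82.6, Sema7a at 78.4 and Efnb3 at 58.9 CPM per kilobase came first, followed by Epha7 at 37.7, Sema6b at 37.4, Plxna4 at 35.1, Sema5a at 34.8 and Epha5 at 33.4. Every gene overlapped its neighbour in this order in its range over libraries, except that Epha2 at 0.436 lay above Epha1 at 0.0611 in every library. Ligands of 1 subfamily could lie far apart, as with Sema5a at 34.8 and Sema5b at 2.28, or Efnb3 at 58.9 and Efnb1 at 4.56. The secreted class 3 ligands ranged between 0.513 for Sema3a and 10.1 for Sema3c, below their coreceptors Nrp1 at 21.7 and Nrp2 at 19.1.

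**Figure D3:**
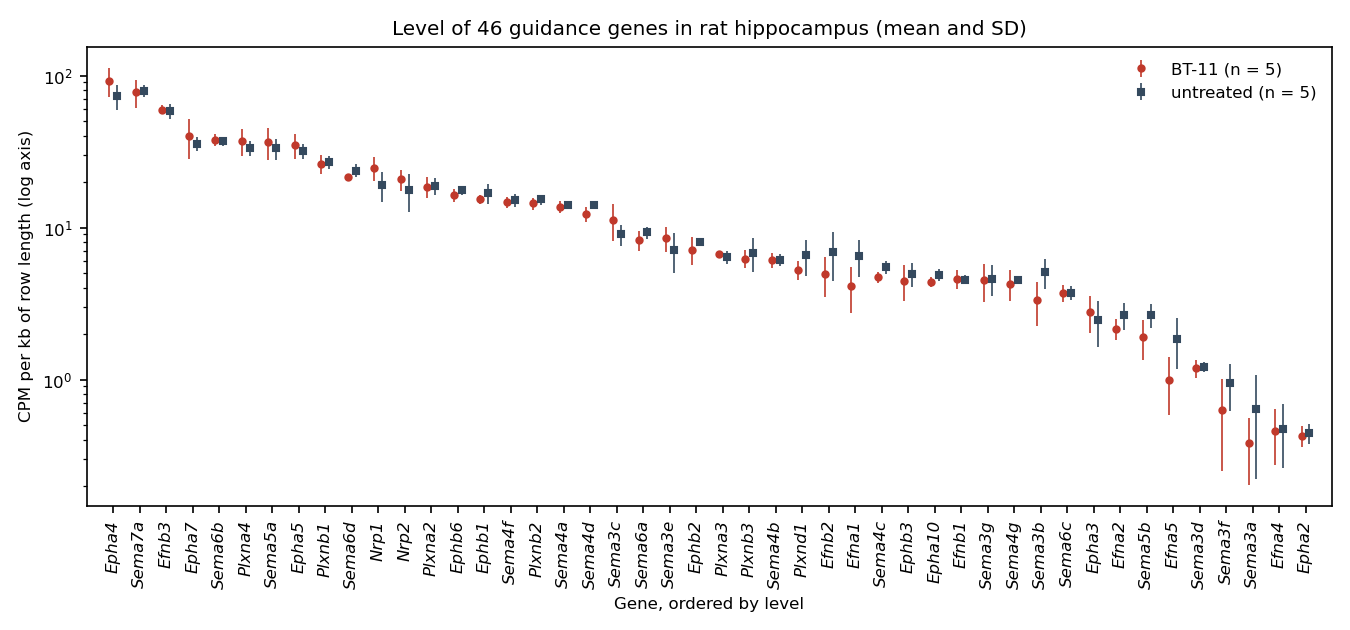
Level per kilobase of transcript row, on a log axis, of 46 genes ordered by their mean over 10 libraries, with BT-11 to the left of untreated for each gene and bars for SD (n = 5 each). The order runs from Epha4 at 82.6 to Epha2 at 0.436 CPM per kilobase, and Epha1, with a library at 0, is left out.

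The genes varied together among libraries. Epha4, the gene with the highest level per kilobase, was set against each of the other 44 tested genes over the 10 libraries, a choice made after seeing the data. Pearson and Spearman correlations both passed, with permutation p-values adjusted over the 44 relations, for 8 genes with a positive and 15 with a negative sign. Of these, 8 and 14 kept their sign at a size of at least 0.5 after group means were subtracted and after leaving out BT-11 libraries 1 and 2, the farthest from the Epha4 median, and Sema6a did not. The positive 8 were Sema3c, Nrp1, Epha5, Epha3, Nrp2, Plxna4, Sema3e and Sema5a. The negative 14 were Efna1, Plxnb2, Sema3f, Sema3b, Plxnd1, Sema5b, Ephb1, Epha10, Epha2, Ephb3, Sema4c, Plxnb1, Sema6c and Sema3g.

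Sema3c had a Pearson r of 0.98 with Epha4 (permutation p 1e-05, the smallest that 100000 resamples can give, adjusted 0.00044) and a rho of 0.99 (permutation p 3e-05, adjusted 0.00132). Efna1 had an r of -0.97 (permutation p 8e-05, adjusted 0.00117) and a rho of -0.93 (permutation p 0.00035, adjusted 0.0037). Over the 8 libraries left without BT-11 libraries 1 and 2, r was 0.96 for Sema3c and -0.91 for Efna1. With group means subtracted r was 0.98 for Sema3c and -0.96 for Efna1, so libraries within a group differed in the same way. All 8 genes of positive sign averaged higher and all 14 of negative sign averaged lower with BT-11, in the same libraries. Epha4 itself averaged higher with BT-11 and the genes were chosen over all 10 libraries. That choice favoured this agreement of sign, which is no separate result.

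**Figure D4:**
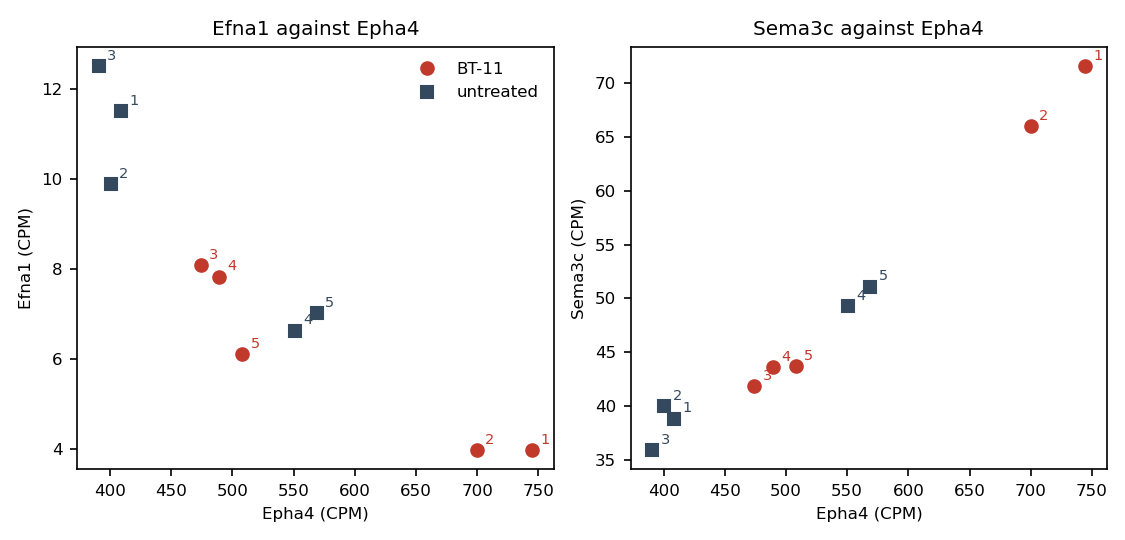
Efna1 (left) and Sema3c (right) against Epha4, each in CPM, with 1 numbered point per library, circles for BT-11 and squares for untreated. Libraries BT-11 1 and 2 sit at the high end of Epha4, at 744.6 and 699.8 CPM, with the lowest Efna1 and the highest Sema3c, and untreated libraries 4 and 5 lie closer to BT-11 libraries 3 to 5 than to the other untreated libraries.

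The first principal component of the 45 genes after subtraction of group means held 52.5% of their variance, where that of all genes tested held 35.5%. Library scores on it were 0.54, 0.31, -0.34, -0.39 and -0.12 for BT-11 libraries 1 to 5 and -0.22, -0.16, -0.23, 0.21 and 0.41 for untreated libraries 1 to 5. Genes across the whole table moved in the same way, though in smaller shares. With group means subtracted, 22.7% of the family genes had an r of at least 0.7 with Epha4 and 36.4% an r of -0.7 or below, where 12.6% and 14.2% of all genes did. The background was not matched for level or row length, and family rows were longer (median 3911 against 2223 bases). These shares therefore do not show a trait particular to the family.

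**Figure D5:**
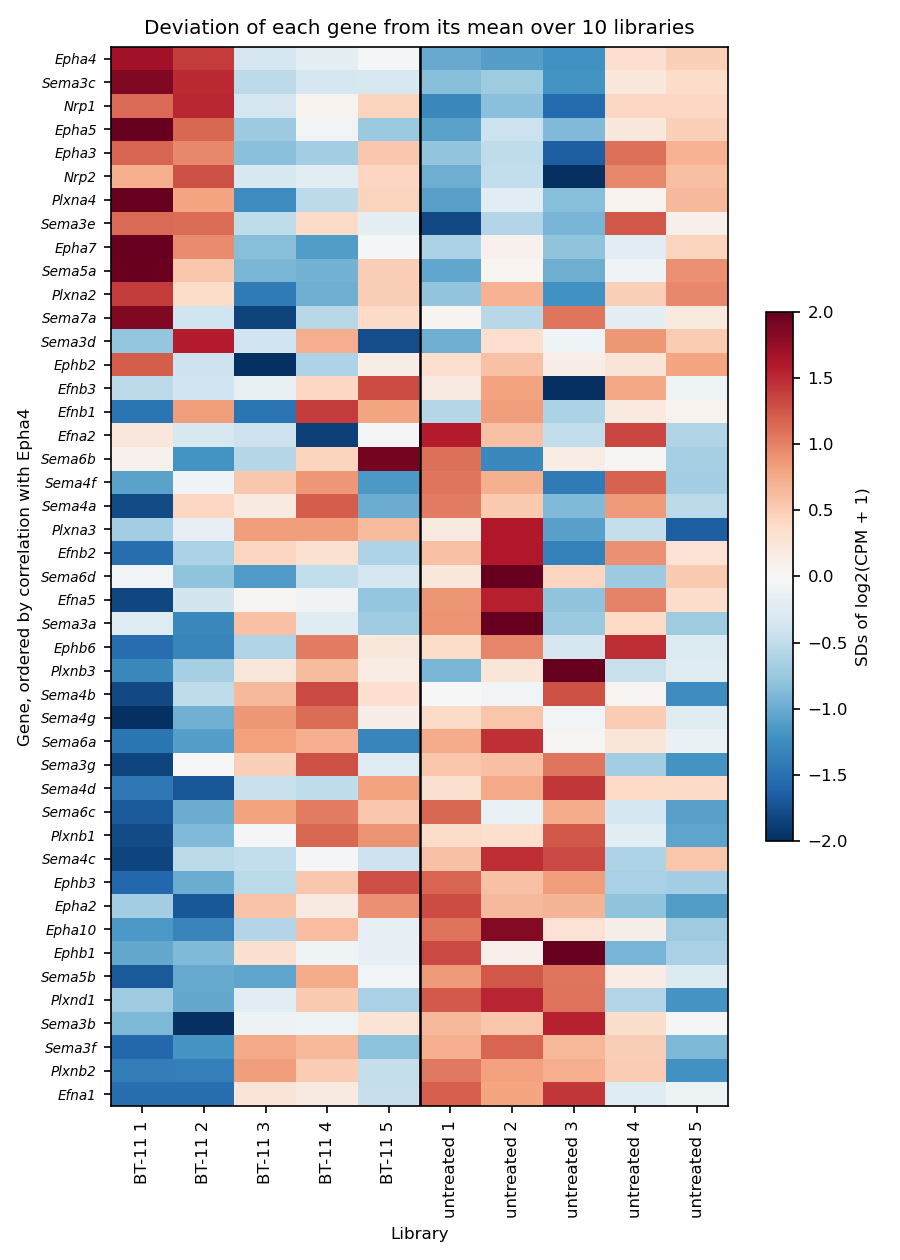
Deviation of each of the 45 tested genes from its own mean over 10 libraries, in SDs of log2(CPM + 1), with genes ordered down the page by their correlation with Epha4 and BT-11 libraries left of untreated libraries. The upper block of genes is high and the lower block low in BT-11 libraries 1 and 2, and untreated libraries 1 and 3 mostly show the opposite.

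Markers of neighbouring tissue and of glia moved with these genes. The mean log2(CPM + 1) over 8 thalamus markers was 2.73 ± 0.22 in BT-11 libraries and 3.02 ± 0.15 in untreated libraries (exact permutation p 0.0556, adjusted over 13 marker lists 0.241). With BT-11, 1 of 8 markers averaged higher and 7 lower, with summed levels of 44.6 to 68.6 CPM against 61.6 to 82.7 CPM untreated. The thalamus level had an r of -0.92 with Epha4 (permutation p 0.00039, adjusted over 585 relations 0.019), -0.92 with Nrp1 (permutation p 0.00043, adjusted 0.0193) and 0.94 with Efna1 (permutation p 0.00015, adjusted 0.0167). Spearman rho was -0.94, -0.95 and 0.95 for these 3 genes. Of the 585 relations of 45 genes with 13 marker lists, 73 passed for Pearson r, 40 positive and 33 negative. Of these 30 also passed for rho and kept an r of at least 0.5 in size after subtraction of group means and without the 2 farthest libraries, 9 of them with the thalamus, 8 with the striatum and 6 with oligodendrocyte precursor markers. Striatum markers averaged 3.44 ± 0.25 with BT-11 and 3.76 ± 0.35 untreated, 0 of 8 higher and 8 lower (exact permutation p 0.143, adjusted 0.465). Their summed levels were 140.3 to 192.2 CPM against 155.2 to 229.8 CPM. Interneuron markers averaged 4.87 ± 0.13 and 5.09 ± 0.15, 0 of 9 higher and 9 lower (exact permutation p 0.0397, adjusted 0.241), and had 0 relations that passed. No marker of these lists was at 0 counts over the libraries. Choroid plexus markers had 0 relations that passed. Such relations were not counted over all genes tested, so these counts do not show a trait particular to the guidance genes. The part of tissue borders in the values of the guidance genes was not tested.

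Some genes went with markers of several glial and vascular cell types at once. Sema3g had an r of 0.96 with endothelial markers (permutation p 2e-05, adjusted 0.00877, rho 0.95), a cell type in which it is known. It also had an r of 0.92 with astrocyte, 0.84 with microglia and 0.81 with oligodendrocyte precursor markers (permutation p 0.0002, 0.0018 and 0.0036, adjusted 0.0167, 0.0329 and 0.0413). Plxnb1 had an r of 0.95 with astrocyte markers (permutation p 3e-05, adjusted 0.00877, rho 0.94) and 0.87 with precursor markers (permutation p 0.0008, adjusted 0.0296, rho 0.88), and Plxnb3 had 0.87 with oligodendrocyte precursor markers (permutation p 0.00141, adjusted 0.0327, rho 0.87). Epha10 had -0.92 with markers of CA3 and CA2 pyramidal cells (permutation p 0.00019, adjusted 0.0167, rho -0.92), and 0.84 and 0.8 with striatum and thalamus markers (permutation p 0.00191 and 0.00581, adjusted 0.0329 and 0.0473). Myelin markers, all 16 of which averaged lower with BT-11, had r values of 0.88 with Efna1, 0.88 with Sema3b and -0.84 with Nrp1 (permutation p 0.00133, 0.00169 and 0.00277, adjusted 0.0327, 0.0329 and 0.0367), but none of their relations passed for rho. Summed myelin levels ran between 6838.6 and 10068 CPM in BT-11 libraries and between 9330.4 and 17279.7 CPM in untreated libraries.

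Transcript length also moved with the libraries. Among genes over 5 CPM, the 594 with a row of at least 6000 bases had median log2 deviations of 0.07, 0.07, -0.07, 0.01 and 0.02 in BT-11 libraries 1 to 5 and -0.11, 0.06, -0.11, 0.04 and 0.03 in untreated libraries 1 to 5. Epha4 and the 8 genes that followed it had a median row length of 4768 bases, the 14 opposite genes 3846.5 bases, the tested family genes 3911 bases and all genes tested 2223 bases. Across the 45 genes the log2 fold change had an r of 0.58 with log2 length and 0.63 with log2 level, a description over genes of the same libraries. The part of length in the fold changes was not tested.

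Ligands were set against known receptors in 14 combinations over the 10 libraries, chosen after the values were seen. Sema5a and Plxna2 went together most closely, with a Pearson r of 0.92 (permutation p 0.0003, adjusted over the 14 combinations 0.0042) and a rho of 0.81 (permutation p 0.00748, adjusted 0.0607). The r was 0.93 without BT-11 library 1 and untreated library 1, the farthest from the median, and 0.95 with group means subtracted. Both genes have long rows, of 10501 and 10201 bases, and with group means subtracted they had an r of 0.81 and 0.76 with Epha4. How many other genes followed Plxna2 as closely was not tested. No other combination had an adjusted p under 0.05. Sema6a and Plxna4 had an r of -0.77 (permutation p 0.00867, adjusted 0.0607), Sema3e and Plxnd1 -0.72 (permutation p 0.0224, adjusted 0.105), and Sema3f and Nrp2 -0.68 (permutation p 0.0311, adjusted 0.109). Sema4d and Plxnb1 had an r of 0.65 (permutation p 0.0432, adjusted 0.121), and Efna5 and Epha4 -0.52 (permutation p 0.122, adjusted 0.236).

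Of 37 genes for signal transducers and coreceptors of semaphorins and ephrins, 23 averaged higher and 14 lower with BT-11, with 0 past the adjusted threshold of edgeR and a median log2 fold change of 0.02. At an unadjusted p under 0.05, 0 were higher and 3 lower, where 2.53% and 3.42% of all genes tested were. Chn2, a Rac-inactivating chimaerin that acts downstream of semaphorins in mouse hippocampus, averaged 9.52 ± 1.27 CPM with BT-11 and 12.9 ± 0.84 CPM untreated, a log2 fold change of -0.44 ± 0.104 (adjusted p 0.8, edgeR). Grip2, a scaffold of ephrins B and glutamate receptors, averaged 23.3 ± 4.14 and 31.5 ± 5.68 CPM (-0.43 ± 0.136, adjusted p 0.8, edgeR), and Dpysl5, a collapsin response mediator, 53.6 ± 6.99 and 69.2 ± 13.8 CPM. Ngef, an ephexin that signals downstream of Epha4, averaged 127.5 ± 24.6 CPM with BT-11 and 166.7 ± 50.3 CPM untreated.

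Of 18 tested slit, netrin and other repulsive guidance genes, 10 averaged higher and 8 lower, with 0 past edgeR's adjusted threshold and a median log2 fold change of 0.14. At an unadjusted p under 0.05 there were 2 in each direction, where 2.53% of all genes tested were higher and 3.42% lower. The netrin receptor Unc5b averaged 26.5 ± 5.07 CPM with BT-11 and 35.3 ± 4.27 CPM untreated (-0.41 ± 0.126, adjusted p 0.8, edgeR), and the slit receptor Robo1 64.9 ± 9.05 and 51.2 ± 9.88 CPM (0.34 ± 0.129, adjusted p 0.809, edgeR). The netrin-G ligands, synaptic cell surface proteins, took opposite signs, with Ntng1 at 46.9 ± 3.44 CPM with BT-11 and 59.5 ± 15 CPM untreated, and Ntng2 at 55.5 ± 2.74 and 47.7 ± 5.01 CPM.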

How the data were processed

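Left hippocampi of 10 female rats were sequenced, 5 per group, grouped by the treatment label. Sex is taken from the sample labels; the design text once says male. Per the labels' protocols, RNA was isolated with an RNeasy kit and libraries were made with a strand-specific KAPA mRNA kit. The submitters' processing notes name build rn6 and, with no stated role, the tools Partek, STAR 2.7.9a, DESeq2 and bcl2fastq 2.19.1.403. Which program counted the reads, and whether by strand, is not stated there, so overlapping and antisense genes cannot be told apart. The authors deposited 14806 transcript rows as estimated counts (expected counts), of which 85.4% are whole within 1e-06, and as a normalized signal that is the deposited count times 1 factor per library (0.822 to 1.15). The signal table served as an alternative. Coordinates are as deposited, for rn6.

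Counts of the 785 symbols with several rows were added up, and all sums rounded, because the values were not the whole counts that the design assumed. filterByExpr of edgeR 4.0.16 kept 12000 genes and removed 1670. The test was edgeR's quasi-likelihood test with TMM scaling (factors 0.969 to 1.05), two-sided and without covariates, and p-values were adjusted by Benjamini-Hochberg across those 12000 genes. The biological coefficient of variation was 13%. Standard errors come from the fold change and F statistic. Each library is labelled as a separate sample and stands for 1 rat. Marker levels are means of log2(CPM + 1), compared over 252 exact assignments, whose smallest possible p is 0.00794. Correlations used 100000 permutations. DESeq2 1.42.0, limma 3.58.1, R 4.3.3, Python 3.11.15, scipy 1.17.1 and matplotlib 3.10.9 were also used, and the test was tested on simulated data. Named genes were the 12 with the smallest unadjusted p, the 4 with the highest level per kilobase and 11 listed genes, with values in every library, and up to 4 genes per pathway list. The family genes, gene lists and relations were chosen with earlier results of these data known. Alternatives were other scalings, filters and tests, the most counted transcript row, a replicate block, myelin or choroid plexus covariates and left-out libraries.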

Additional observations from a re-analysis of the deposited data

Results flagged for a closer look

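Plxnb2, a receptor of class 4 semaphorins, had 90.5 CPM in untreated library 5, the lowest of its group and far from the other 4 untreated libraries, which lay between 104.8 and 109.8 CPM. The gap was 0.742 of the whole range of the group. The choroid plexus marker level was 5.25 in BT-11 library 3, against 0.83 to 1.76 in the other BT-11 libraries, with a gap of 0.789 of the range. In untreated library 4 it was 5.47, against 1.72 to 2.49 in the other untreated libraries, with a gap of 0.796. Of 90 groups of values of the guidance genes 1 stood out in this way, and of 26 groups of marker levels 2 did, where chance gives about 1 in 20.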

How the results depend on the processing

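No guidance gene passed the adjusted threshold in any of the 21 alternatives run. DESeq2 called 8 genes in the whole table, none of them a guidance gene, and every other alternative called 0. The number of guidance genes at an unadjusted p under 0.05 was 7, with 1 higher and 6 lower. It was 2 higher under library size scaling and under DESeq2. With the myelin covariate it was 3 in all and 2 lower, and without both choroid-plexus-rich libraries, chosen after seeing the data, 14 in all and 5 higher, with 2 genes whose groups did not overlap (5.13% of all genes). Leaving out 1 library gave 3 to 12 in all, 0 to 4 higher and 3 to 10 lower, where all genes gave 3.1 to 9.37%, 1.03 to 4.61% and 2.07 to 4.77%. It gave 0 to 2 genes without overlap, where all genes gave 1.03 to 2.48%, 0 genes called and a median log2 fold change between -0.12 and -0.03. The cause was not tested.

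Of 462 values of the 22 named genes, 440 kept their sign and 22 did not, and 11 genes never changed sign, which says nothing of size. With the myelin covariate several genes kept their sign near 0, with Efna1 at -0.08, Sema3b at -0.03, Sema4c at -0.08, Sema4d at -0.04, Sema3f at -0.003 and Plxnd1 at -0.09, and on the transcript row with most counts Sema6a was at -0.005. Signs turned with the myelin covariate, to a log2 fold change of -0.03 for Nrp1, -0.08 for Epha4, -0.17 for Sema3c, -0.06 for Efnb3, -0.24 for Epha7, -0.24 for Nrp2, -0.14 for Plxna4, -0.19 for Sema5a and 0.36 for Plxnb3. Leaving out 1 library gave -0.003 to 0.26 for Epha7, below 0 without BT-11 library 1, and -0.15 to 0.06 for Sema7a, above 0 without BT-11 library 3 or untreated library 3. It gave -0.04 to 0.06 for Efnb3, below 0 without BT-11 library 5 or untreated library 3, and -0.19 to 0.05 for Plxnb3, above 0 without untreated library 3. Plxna2 ran between -0.09 and 0.06, above 0 without BT-11 libraries 3 or 4 or untreated libraries 2, 4 or 5. Without both choroid-plexus-rich libraries Sema7a was at 0.04 and Plxna2 at 0.08.

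Libraries with the same number in both groups did not deviate together, with correlations of -0.353, -0.066, 0.121, -0.352 and -0.096 for numbers 1 to 5. Untreated library 5 had correlations of 0.443 and 0.452 with BT-11 libraries 1 and 2. Libraries were therefore not treated as pairs in the main test, and other links between them were not tested. With the replicate block the count stayed at 7 guidance genes, 1 higher and 6 lower, 0 were called and the median was -0.05. Efna5 had 179 counts and Sema3a 192 over all libraries.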
